A study of Macaca mulatta with 27 samples.

Results

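TL-CDK8/19i (TL-CDK8i in the labels) is a culture protocol meant to reset rhesus macaque embryonic stem cells. It shares tamoxifen and LIF with the TL2i protocol but uses CNIO-47799, which blocks the kinases CDK8 and CDK19, where TL2i uses blockers of MEK and GSK3β. The 3 libraries of TL-CDK8/19i cells were compared with the 6 libraries of primed cells, out of 27 libraries in all, and the genes that stood above or below primed cells and each of the 6 other protocols (TL2i, 4i/L/b, LCDM (EPS), NHSM-v, t2iLGöY and E-NHSM, 3 libraries each) were then described. The methods give LyonES-tGFP-(S3) as the source of the cells, a single clonal line described as carrying a tauGFP transgene under the ubiquitous CAG promoter and a lentiviral STAT3-ERT2, a STAT3 fused to a hormone-binding domain that tamoxifen activates. Cells of the remaining protocols, like primed cells, received no tamoxifen, so their STAT3-ERT2 was meant to be inactive. Clump passaging by hand was used for primed cells and single-cell passaging for the protocols, so passaging method and protocol cannot be told apart. The count tables held 17967 gene symbols, of which 13359 had enough counts to be tested between TL-CDK8/19i and primed cells.

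CDK8 and CDK19 are alternative kinases of Mediator, the complex that links transcription factors at enhancers to RNA polymerase II. With cyclin C, MED12 and MED13 they form a detachable kinase module that can hold back or promote transcription, depending on the gene. Primed pluripotent cells, which resemble the epiblast near gastrulation, and naive cells, which resemble the earlier epiblast, share POU5F1, NANOG and SOX2 but differ in the factors around them.

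Levels are given as counts per 1000000 counts of the library (CPM), after TMM scaling of the 27 libraries. For TL-CDK8/19i cells they are given in the order of libraries 1, 2 and 3, and for primed cells as the lowest, the median and the highest of the 6 libraries. Fold changes are TL-CDK8/19i over primed on the log2 scale, ± their standard error, and a gene was said to rise or fall when the edgeR quasi-likelihood test gave a Benjamini-Hochberg adjusted p below 0.05 over all genes tested. Nothing in the labels says that replicates were separate cultures, so p-values measure the spread between these libraries, which may be technical. In such bulk samples, fewer cells of a type and less RNA per cell cannot be told apart.

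Total counts were 8929940 to 11034150 in TL-CDK8/19i libraries and 7111886 to 15183387 in primed libraries. Between 148 and 252 genes differed more than 2-fold in CPM + 1 between TL-CDK8/19i libraries, and 809 to 2135 between primed libraries of the same letter. The primed columns carry the letters J and K, 3 libraries each, which the labels do not explain. Library J3, the shallowest, stood apart from J1 and J2 with at least 2074 such genes.

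The counts on ESR1, the estrogen receptor whose hormone-binding domain is the ERT2 part of the transgene, did not follow that description of the cells. ESR1 stood at 35.0, 0.111 and 0.483 CPM in TL-CDK8/19i cells. Primed libraries J1 to J3 held 0 to 0.863 CPM, and primed libraries K1 to K3 held 355 to 399 CPM. In TL2i cells, which by the methods carry the same activated transgene, ESR1 stood at 226 to 232 CPM. The primed J and K libraries were therefore apart in ESR1, and TL-CDK8/19i libraries 2 and 3 lay with J. The libraries of E-NHSM (0 to 0.612 CPM) and LCDM (EPS) (0 to 0.379 CPM) were also near 0. Those of t2iLGöY (350 to 413 CPM), 4i/L/b (727 to 790 CPM) and NHSM-v (1175 to 1280 CPM) were not. Whether ESR1 counts hold reads of the transgene, and whether all libraries hold the same clone, was not tested. The presence of STAT3-ERT2 in the libraries near 0, primed J and TL-CDK8/19i libraries 2 and 3 among them, thus rests on the methods alone.

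**Figure D1:**
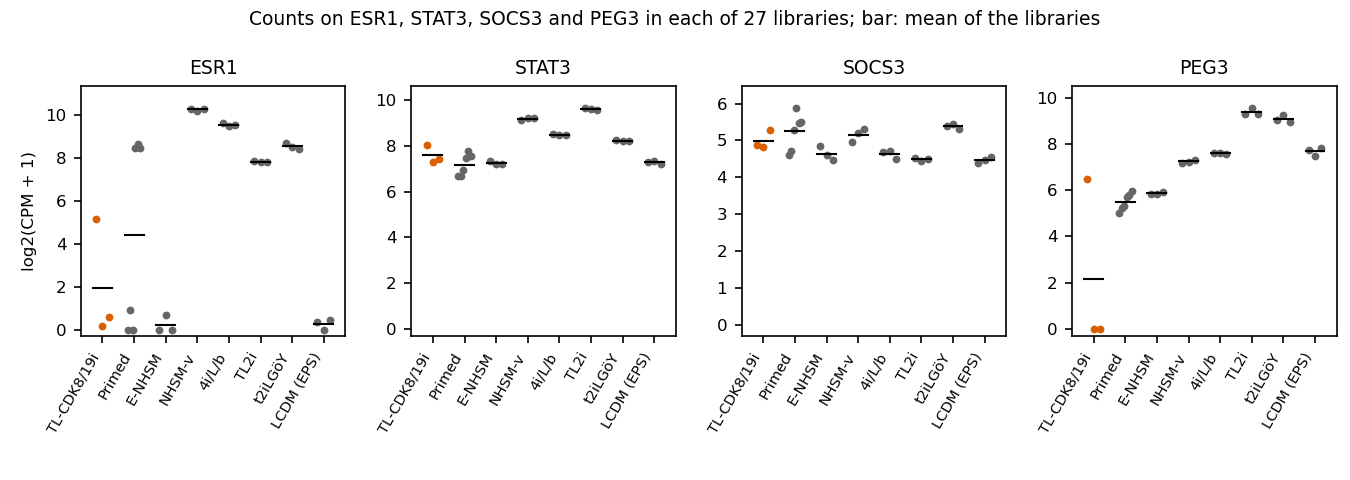
Levels of ESR1, STAT3, SOCS3 and PEG3 in each of the 27 libraries, as log2(CPM + 1) on the vertical axis and by group on the horizontal axis, with a bar at the mean of the plotted values. ESR1 splits the 6 primed libraries into 3 near 0 and 3 near 360 to 400 CPM, and TL-CDK8/19i library 1 lies apart from libraries 2 and 3 in ESR1 and PEG3.

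Library 1 differed from libraries 2 and 3 in a recurrent way. PEG3, an imprinted zinc-finger gene, stood at 87.5, 0 and 0 CPM, against 31.3, 45.0 and 60.7 CPM in primed cells and a mean of 665.5 CPM in TL2i cells. A search made after these values were seen found 12 genes with at most 3 counts in each of libraries 2 and 3 and at least 10 CPM in TL2i cells, among them PEG3, DPP4, MEP1A, LMX1A and ALDH1A1. Library 1 exceeded 3 counts in 12 of these 12, at a median of 14.5% of the TL2i level and a range from 11% to 20.9%. Genes chosen in the same way for t2iLGöY (30 genes) stood in library 1 at a median of 1.85% of the t2iLGöY level, and those for LCDM (EPS) (32 genes) at 0.866%. The smaller sets chosen for 4i/L/b (5 genes), primed (3 genes), NHSM-v (9 genes) and E-NHSM (5 genes) had medians of 12.5%, 7.41%, 4.75% and 3.45%. The 4i/L/b median was thus close to that of TL2i, but its 5 genes ranged from 0.974% to 45.4%. PEG3, the gene that prompted the search, met the rule in every group, so the sets overlap. In library 1 the smaller sets summed to 88.7 to 99.3 CPM, of which PEG3 was 87.5 CPM. The cause was not tested. Values without library 1 are given beside several of the lists.

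A total of 6162 of the 13359 genes (46.1%) changed, 2985 (22.3%) upward and 3177 (23.8%) downward. Against primed J alone 6053 genes changed, against primed K alone 7020, and without TL-CDK8/19i library 1 the number was 5160. The rises were larger than the falls. The median called rise was 1.17 on the log2 scale, and 874 genes rose by more than 2. The median called fall was -0.74, and 149 genes fell by more than 2. In 75 of the genes that rose, no primed library held more than 3 counts, whereas 16 of the genes that fell had at most 3 counts in each TL-CDK8/19i library. Over all genes tested the median was 0.02, and each list below is to be read against that median and against the shares of 22.3% and 23.8%.

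**Figure D2:**
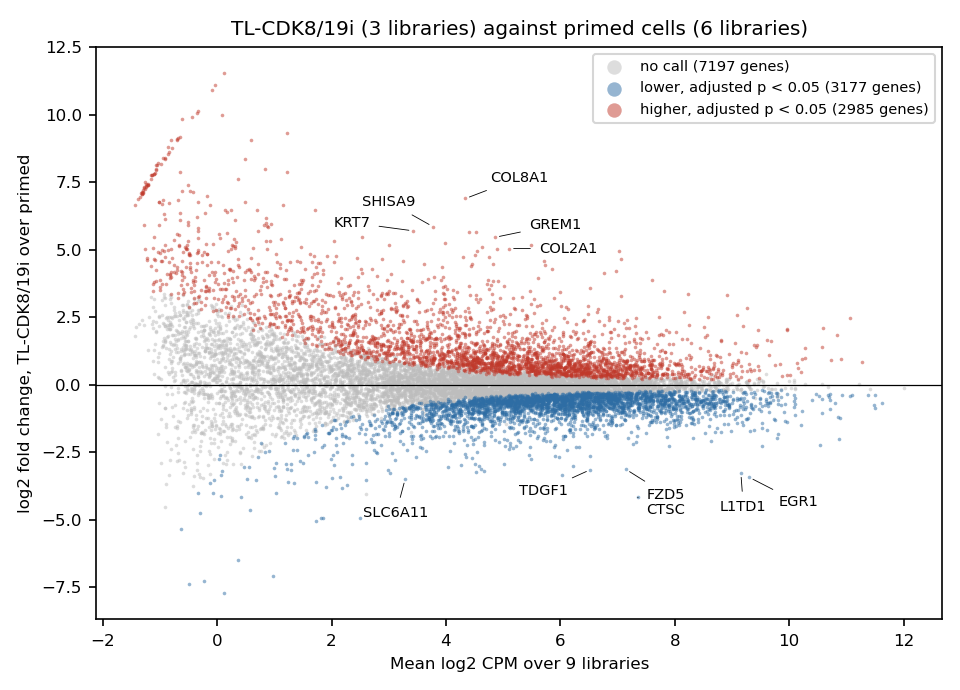
Log2 fold change of TL-CDK8/19i over primed cells (vertical axis) against the mean log2 CPM over the 9 libraries (horizontal axis), 1 point per gene tested. The 2985 genes that rose are red, the 3177 that fell are blue, and among well-expressed genes the red points reach farther from 0 than the blue ones.

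The core pluripotency factors fell, and did so unevenly. Of 18 tested, 15 fell and 1 rose, with a median of -1.18 (-1.21 without library 1). POU5F1, the central factor of the network, stood at 484, 418 and 605 CPM against 1104, 1177 and 1295 CPM in primed cells, a fall of -1.29 ± 0.10 (edgeR adjusted p = 2.47e-07). SOX2, its binding partner, fell by the same -1.29 ± 0.15, from a median of 266 CPM to 110, 106 and 128 CPM. NANOG fell by -0.91 ± 0.18, with 73.1, 51.3 and 97.6 CPM against 107, 135 and 157 CPM. All 3 genes were separated between the groups in every library, although NANOG in library 3 came close to the lowest primed library. Far larger falls were seen for L1TD1, an RNA-binding protein of pluripotent cells, and TDGF1, a Nodal co-receptor. L1TD1 went from 1128, 1245 and 1377 CPM to 144, 107 and 151 CPM (-3.28 ± 0.12, edgeR adjusted p = 1.47e-10). TDGF1 went from 180, 199 and 220 CPM to 21.8, 13.8 and 33.9 CPM (-3.15 ± 0.21). The groups did not overlap for either gene. TERF1, a telomere-binding protein that is abundant in pluripotent cells, fell by -1.68 ± 0.12.

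DPPA2, a chromatin factor of the early embryo, was the only core factor that rose. It stood at 42.1, 50.8 and 69.4 CPM against 5.90, 13.5 and 15 CPM (2.10 ± 0.25, edgeR adjusted p = 8.81e-06). It was also higher in TL-CDK8/19i cells than in each of the other groups, of which E-NHSM came nearest with a mean of 19.9 CPM, while the other 5 protocols had means of 0.43 CPM or less. Its partner DPPA4 fell by -0.87, so the pair moved in opposite directions.

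Of 12 naive-state factors tested, 5 rose and 4 fell, with a median of 1.29. The count tables held 22 factors of this list, and those not tested had too few counts. KLF5, a Krüppel-like factor of the early embryo, showed the clearest rise, to 164, 251 and 213 CPM from 2.29, 6.20 and 22.4 CPM (4.41 ± 0.41, edgeR adjusted p = 1.02e-06). TBX3, a T-box repressor, rose from at most 0.691 CPM to 5.62, 10.4 and 6.38 CPM (5.43 ± 1.07). TBX3 passed the count filter only through TL-CDK8/19i libraries, so it could only rise. PRDM1 rose by 2.31 ± 0.65 (edgeR adjusted p = 0.00939), but without library 2 the value was 2.14 with an adjusted p of 0.0542. KLF5, TBX3 and PRDM1 are also used by differentiating lineages. TFAP2C, encoding AP-2 gamma, stood at 42.6, 42.1 and 35.4 CPM and overlapped the primed range of 7.57 to 40.0 CPM. Its difference of 1.02 ± 0.36 (edgeR adjusted p = 0.0323) did not pass against K libraries alone or when any 1 TL-CDK8/19i library was left out (largest adjusted p = 0.123). GDF3, a TGF-β family ligand, rose by 1.42. The fallers were CDH1, ZFP42, TFE3 and NODAL. TFE3, a factor whose nuclear location marks naive cells, fell from 65.4, 78.1 and 90.7 CPM to 40.0, 37.6 and 34.1 CPM (-1.12 ± 0.14). KLF4 stood at 1.49, 3.23 and 1.06 CPM against 0, 0.701 and 2.43 CPM, which overlapped (edgeR adjusted p = 0.394). KLF17, a factor of the human naive state, had 0 counts in all 9 libraries, and TFCP2L1 stood at or below 2.0 CPM in each of them. SUSD2, a surface marker of human naive cells, read 7.80, 6.91 and 3.96 CPM against 0, 1.56 and 3.51 CPM, without overlap but short of the threshold (edgeR adjusted p = 0.065). It passed against J alone (2.87, edgeR adjusted p = 0.0323) and against K alone (1.38, edgeR adjusted p = 0.0396).

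Primed-state genes fell as well. Of 20 tested, 12 fell and 1 rose, at a median of -0.77. CD24, a surface glycoprotein, fell from 1105, 1250 and 1500 CPM to 289, 246 and 303 CPM (-2.25 ± 0.11, edgeR adjusted p = 2.88e-09). ZIC5, a zinc-finger factor of the postimplantation epiblast, fell by -1.40 ± 0.19, ZIC2 fell by -1.37, and OTX2, another factor of that stage, fell by -1.22. CDH2, N-cadherin, was the exception and rose from 200, 264 and 358 CPM to 640, 754 and 730 CPM (1.36 ± 0.16). Of the 8 DNA methylation genes tested, 5 fell and 0 rose, and DNMT3A, a de novo methyltransferase, was lower than in each of the 7 other groups.

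In the Mediator kinase module, 3 of 7 genes rose and 1 fell, with a median of 0.33. CDK8, the inhibited kinase, was at 71.8, 73.0 and 77.1 CPM, inside the primed range of 64.4, 70.6 and 79.3 CPM (0.01 ± 0.11, edgeR adjusted p = 0.935). CDK19, its paralog and the second target, rose from 7.14, 12.8 and 13.9 CPM to 30.1, 30.0 and 29.2 CPM (1.33 ± 0.23, edgeR adjusted p = 0.000269). Most protocols without this inhibitor had higher CDK19 means than the 29.7 CPM of TL-CDK8/19i cells. These were 39.6 CPM in TL2i, 53.8 in 4i/L/b, 70.3 in NHSM-v, 80.3 in LCDM (EPS) and 93.3 in t2iLGöY, while E-NHSM had 18.2 CPM. CCNC, the cyclin that both kinases require, fell from 111, 145 and 161 CPM to 93.7, 93.3 and 89.7 CPM (-0.68 ± 0.12). The 2 kinases thus differed in whether their groups overlapped, and the cyclin moved opposite to CDK19. MED12L, the paralog of the MED12 subunit that activates the kinases, rose from 20.6, 22.3 and 23.9 CPM to 64.0, 68.9 and 63.9 CPM (1.51 ± 0.13) and was higher than in each of the 7 other groups. MED13L, a paralog of the MED13 subunit that tethers the module, rose by 0.54 ± 0.10. MED12 and MED13 themselves gave 0.20 (edgeR adjusted p = 0.286) and 0.33 (edgeR adjusted p = 0.0515), the latter without overlap and past the threshold against J libraries alone (0.58, adjusted p = 0.00136). Among the 26 other Mediator subunits, 3 rose and 8 fell, around a median of -0.14. MED26, a subunit that recruits elongation factors, fell by -1.11 ± 0.22, and MED14, the scaffold subunit, rose by 0.65.

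STAT3 target genes did not move as a block. Of 25 tested, 7 rose, 2 fell and 16 gave no call, at a median of 0.39. SOCS3, the most direct feedback target, stood at 28.2, 27.3 and 37.6 CPM within the primed range of 23.3, 40.8 and 57.8 CPM (-0.37 ± 0.26, edgeR adjusted p = 0.255). STAT3 itself stood at 258, 155 and 173 CPM against 100, 148 and 216 CPM (0.33 ± 0.23, edgeR adjusted p = 0.265). Both depended on the primed set. STAT3 was higher against J alone (0.82, adjusted p = 0.00456) and gave -0.021 against K alone, while SOCS3 was lower against K alone (-0.69, adjusted p = 0.00516) and gave 0.077 against J alone. For STAT3, library 1 stood well above the other TL-CDK8/19i libraries, and its part in the difference from J was not tested. The members that rose were led by A2M, an acute-phase protease inhibitor, from 5.71, 12.5 and 17.7 CPM to 179, 166 and 209 CPM (3.83 ± 0.23, edgeR adjusted p = 1.71e-08), and by BCL6, a transcriptional repressor, with 2.31 ± 0.29. IL6ST, the gp130 receptor subunit through which LIF signals, rose by 1.28.

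Genes downstream of MEK and ERK mostly fell, in a medium without a MEK inhibitor. Of 20 tested, 11 fell and 2 rose, at a median of -0.56. EGR1, an immediate-early factor, fell from 1107, 1489 and 1771 CPM to 145, 111 and 163 CPM (-3.43 ± 0.18, edgeR adjusted p = 4.24e-09). IER2, another immediate-early gene, fell by -1.60 ± 0.11, and FOS fell by -1.17. SPRY4, a feedback inhibitor of the pathway, fell from 251, 406 and 488 CPM to 131, 120 and 169 CPM (-1.52 ± 0.18). DUSP6, the ERK phosphatase, fell less, by -0.57. Against these, FOSL1, a late AP-1 subunit, rose from 3.78, 7.61 and 18 CPM to 42.2, 44.9 and 48.6 CPM (2.35 ± 0.35), and DUSP5, a nuclear ERK phosphatase, rose by 1.03 and was higher than in all 7 other groups.

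Wnt target genes rose in a medium without a GSK3β inhibitor. Of 14 tested, out of 17 in the count tables, 9 rose and 1 fell, at a median of 1.61 (9 and 0, and 1.73, without library 1). LEF1, a transcription factor that β-catenin binds, stood at 35.1, 38.3 and 31.4 CPM against 0, 0 and 0.886 CPM (7.63 ± 0.72, edgeR adjusted p = 1.04e-06). AXIN2 and NKD1, feedback inhibitors of the pathway, rose by 3.04 ± 0.23 and 4.03 ± 0.25. NKD1 went from 2.01, 2.54 and 4.11 CPM to 44.9, 54.7 and 40.9 CPM, and no TL-CDK8/19i library overlapped a primed one. DKK1, a secreted antagonist, rose from at most 2.29 CPM to 32.7, 36.4 and 39.4 CPM (6.0 ± 0.85), and SP5, a direct target, rose to 12.4, 9.92 and 14.1 CPM (5.45 ± 1.0). LEF1, DKK1 and SP5 were near 0 in most primed libraries and passed the count filter only through TL-CDK8/19i libraries. They could therefore only rise, and the direction of this list is partly set by the filter. None of the Wnt list was higher than in all other groups. For LEF1, 4 of the other protocols had higher means than the 34.9 CPM of TL-CDK8/19i cells, from 74.1 CPM in NHSM-v to 152.2 CPM in TL2i, the latter grown with a GSK3β inhibitor.

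The Nodal and BMP branches of TGF-β signalling differed in their counts. Among 10 Nodal-Activin targets, 5 fell and 2 rose (median -0.60). Their summed level went the other way, to 2571, 3280 and 3333 CPM from 989, 1033 and 1270 CPM in primed cells. FOXH1, the DNA-binding partner of the Nodal SMADs, fell from 39.0, 40.4 and 51.2 CPM to 8.03, 7.02 and 8.31 CPM (-2.49 ± 0.18, edgeR adjusted p = 7.16e-08). Among 14 BMP targets, 7 rose and 1 fell (median 1.28), and their summed level was 345, 340 and 351 CPM against 270, 279 and 319 CPM. ID3, a direct BMP target, rose by 1.32, ID2 rose by 0.79, and ID1 did not pass (-0.35, edgeR adjusted p = 0.125). MSX2, a homeobox gene induced by BMP, rose from at most 0.670 CPM to 9.29, 11.1 and 5.90 CPM (6.21 ± 1.11). Several of these BMP targets had few counts, and with at least 10 counts required in every library only 3 of the list rose.

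Of 24 interferon-stimulated genes tested, 5 rose and 3 fell, around a median of 0.02. IFI6, a mitochondrial antiviral protein, rose from at most 0.622 CPM to 5.62, 8.69 and 5.80 CPM (4.84 ± 0.92, edgeR adjusted p = 0.000588). Of 9 antigen presentation genes, 2 rose and 2 fell, and 1 rose when any 1 TL-CDK8/19i library was left out. B2M, the light chain of MHC class I, fell from 328, 375 and 389 CPM to 176, 197 and 262 CPM (-0.83 ± 0.12), and TAP1, a peptide transporter, rose by 1.73 ± 0.26.

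**Figure D3:**
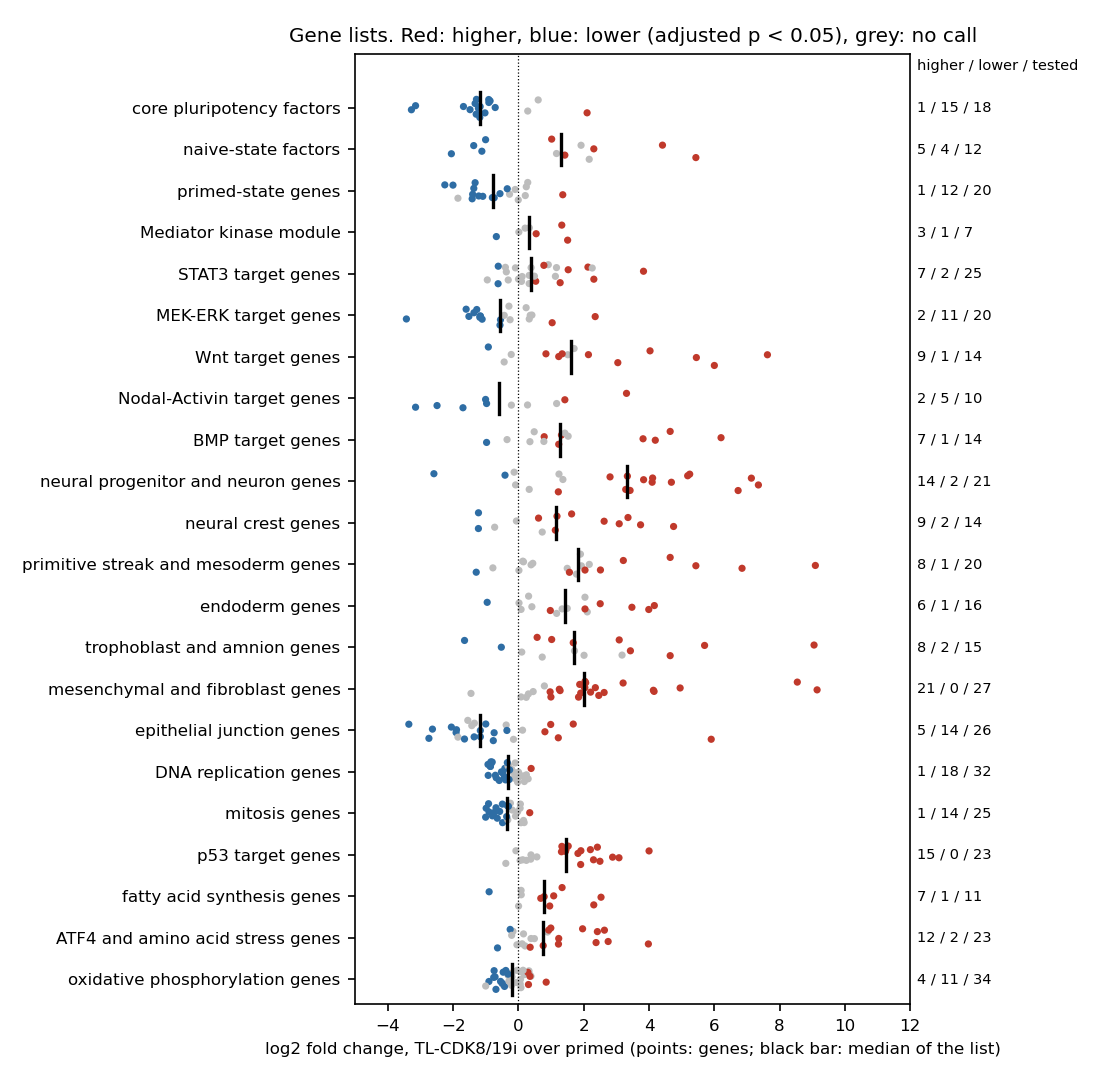
Log2 fold change of each member of 22 gene lists, TL-CDK8/19i over primed (horizontal axis), 1 point per gene tested, red for genes that rose, blue for genes that fell and grey for no call, with a black bar at the median of the list. The lists of mesenchymal, neural, p53 target and Wnt target genes lie mostly right of 0, and those of core pluripotency, epithelial junction, DNA replication and mitosis genes lie mostly left of 0.

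The mesenchymal and fibroblast list had the highest share of rises among the lists chosen with the design, with 21 of 27 up, 0 down and a median of 2.02 (21, 0 and 2.03 without library 1). ACTA2, smooth muscle actin, rose from 29.6, 44.8 and 49.1 CPM to 1161, 1766 and 1214 CPM (4.95 ± 0.15, edgeR adjusted p = 5.99e-11). COL1A1, the main chain of type I collagen, rose from 653, 1371 and 1807 CPM to 7276, 8444 and 6405 CPM (2.46 ± 0.23). VIM, the vimentin filament protein, rose by 2.06, and ZEB1, a repressor of epithelial genes, rose by 1.91. POSTN, a matrix protein of fibroblasts and osteoblasts, rose from 0, 1.96 and 7.71 CPM to 49.7, 70.8 and 45.1 CPM (4.16 ± 0.55). LUM and DCN, small proteoglycans of connective tissue, did not exceed 3 counts in any primed library and stood at 3.96 to 9.70 and 4.01 to 5.22 CPM in TL-CDK8/19i libraries, at least 23.7-fold and 15.6-fold higher.

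Of the 7 fibroblast or feeder markers, 6 rose, and their summed level was 9718, 11185 and 8616 CPM against 1076, 2016 and 2333 CPM in primed cells. PDGFRB, a receptor of mesenchymal cells, was the exception, with 38.8, 42.1 and 27.3 CPM inside the primed range of 26.9, 32.9 and 40.5 CPM. Reads from any feeder cells would add to these genes, and their part was not tested. Of the 3 blood and endothelium markers 0 changed, and PTPRC, the leukocyte surface phosphatase, was at or under 3 counts in each of the 9 libraries.

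Epithelial junction genes moved the other way, with 14 of 26 down, 5 up and a median of -1.17. ESRP1, a splicing regulator of epithelial cells, fell from 121, 153 and 177 CPM to 17.4, 9.58 and 17.8 CPM (-3.36 ± 0.20, edgeR adjusted p = 1.68e-08). EPCAM, an epithelial adhesion molecule, fell from 147, 177 and 207 CPM to 38.3, 23.3 and 25.9 CPM (-2.63 ± 0.17). CDH1, E-cadherin, fell by -2.05 ± 0.41, with 26.8, 9.47 and 15.4 CPM against 30.6, 66.1 and 108 CPM, and library 1 was close to the lowest primed library. CLDN4, a tight-junction claudin, moved against the list, from 0, 0.177 and 2.37 CPM to 31.1, 36.2 and 28.8 CPM (5.91 ± 0.78). KRT8, a simple-epithelium keratin, also rose, by 1.68, together with OCLN, PKP2 and GRHL3. CDH1 was thus lower and CDH2 higher in the same 3 libraries.

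**Figure D4:**
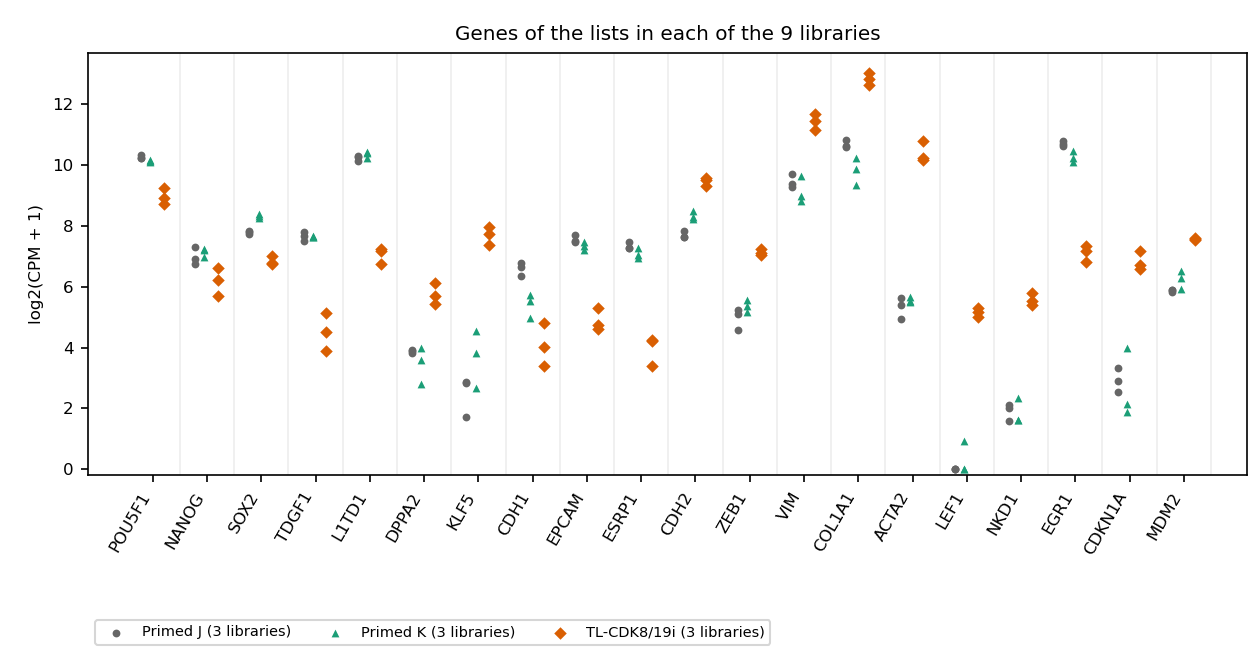
Levels of 20 genes of the lists in each of the 9 libraries, as log2(CPM + 1) on the vertical axis. Circles are primed J, triangles primed K and diamonds TL-CDK8/19i libraries, and each gene shown has its 3 diamonds clear of its 6 primed points, except that NANOG and CDH1 come close.

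Each of the 5 lists of differentiated lineages (neural, neural crest, mesoderm, endoderm, and trophoblast and amnion) held more rises than falls. Genes near 0 in every primed library passed the count filter only through TL-CDK8/19i libraries, so such genes could only rise. The filter kept 21 of 32 neural and 15 of 25 trophoblast and amnion genes, and the direction of these lists is thus partly set by it. Of 21 neural genes tested, 14 rose and 2 fell, at a median of 3.34 (2.81 when genes with at most 3 counts in every library of a group are set at their bound). NEFL, a neurofilament subunit, rose from 3.46, 4.31 and 6.92 CPM to 132, 245 and 185 CPM (5.25 ± 0.21, edgeR adjusted p = 4.62e-10). TUBB3, neuronal tubulin, rose from 7.04, 10.4 and 12.9 CPM to 103, 124 and 94.4 CPM (3.34 ± 0.17), and DCX, a microtubule protein of migrating neurons, rose to 31.4, 24.9 and 27.6 CPM (3.42 ± 0.55). The neural determinants PAX6 and NEUROG2 did not rise. PAX6 stood at 3.10, 3.34 and 3.67 CPM within the primed range (edgeR adjusted p = 0.921), NEUROG2 was at or under 3 counts in each TL-CDK8/19i library, and NES, the progenitor filament nestin, fell by -0.41 ± 0.06. The summed level of the 7 neural markers, NES included, was 1984, 2105 and 2020 CPM against 2234, 2493 and 2574 CPM. NES alone made up most of these sums, with 1839, 1949 and 1894 CPM against 2218, 2475 and 2562 CPM. Of the 7 markers, 2 rose (DCX and TUBB3) and 1 fell (NES), so the lower sum reflects NES and not the markers as a set. With at least 10 counts in every library, 4 neural genes rose, and without library 1, 14 of 23 tested rose.

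ZIC4 and DCC, a zinc-finger gene and an axon guidance receptor, were highest in library 1. ZIC4 read 11.2, 2.90 and 1.16 CPM and DCC 13.7, 7.47 and 5.61 CPM, and both had at most 3 counts in every primed library, so they were at least 16.8-fold and 29.4-fold higher. Without library 1 these bounds were 6.70-fold for ZIC4 and 21.6-fold for DCC. Of 14 neural crest genes, 9 rose and 2 fell (median 1.16), and without library 1, 7 of 15 rose. EDNRB, the endothelin receptor of crest cells, rose to 38.4, 46.8 and 59.8 CPM from 0, 1.25 and 4.91 CPM (4.75 ± 0.57, edgeR adjusted p = 1.08e-05), and SOX10, a defining crest factor, rose by 3.74 ± 0.81. FOXD3, a crest factor that is also part of the pluripotency list, fell by -1.23.

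Of 20 primitive streak and mesoderm genes, 8 rose and 1 fell (median 1.84), and without library 1, 6 rose. EOMES, a T-box factor of the primitive streak, stood at 47.8, 39.1 and 80.1 CPM against 5.99, 8.49 and 16 CPM (2.51 ± 0.28, edgeR adjusted p = 5.28e-06) and was higher than in all 7 other groups. NKX2-5, a cardiac homeobox gene, was not above 3 counts in any primed library and stood at 5.39, 10.6 and 4.83 CPM, at least 22.9-fold higher. MIXL1, a second streak gene, overlapped (edgeR adjusted p = 0.814), and MESP1 was at or near 0 in both groups. The 5 mesoderm markers summed to 65.7, 54.1 and 108.5 CPM against 15.2, 21.9 and 30.2 CPM. EOMES alone made up most of the TL-CDK8/19i sums, and 2 of the 5 markers (EOMES and T) rose.

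Of 16 endoderm genes, 6 rose and 1 fell (median 1.42), and without library 1, 4 rose, a share close to the 22.3% of all genes. The count also depended on the primed libraries, with 10 rises against K alone and 9 without J3. COL4A1, a basement membrane collagen, rose from 197, 219 and 254 CPM to 1273, 1536 and 1122 CPM (2.50 ± 0.10, edgeR adjusted p = 3.10e-10). CXCR4, a chemokine receptor of definitive endoderm and other cells, rose by 3.99 ± 0.93, with 31.4, 44.5 and 40.4 CPM against 0, 0.458 and 11.7 CPM, the highest being library J3. SOX17 stood at 5.16, 2.23 and 7.54 CPM and its call (3.48 ± 1.35, edgeR adjusted p = 0.0476) was lost when any 1 TL-CDK8/19i library was left out (largest adjusted p = 0.186). GATA6 stood at 7.11, 7.58 and 7.54 CPM against 0, 0.447 and 7.29 CPM, overlapping only with library J3 (edgeR adjusted p = 0.179), and it passed against K libraries alone (adjusted p = 3.98e-05). FOXA2 overlapped and gave no call. Of 15 trophoblast and amnion genes, 8 rose and 2 fell (median 1.72), and without library 1, 6 rose. The 7 trophoblast and amnion markers, VTCN1 and CDX2 included, summed to 78.8, 44.0 and 54.8 CPM, below the 107, 117 and 149 CPM of primed cells. VTCN1 alone made up most of these sums, with 44.6, 28.8 and 41.7 CPM against 105, 111 and 143 CPM. Of the 7 markers, 2 rose (HAND1 and GABRP) and 1 fell (VTCN1), so the lower sum reflects VTCN1 and not the markers as a set. KRT7, a keratin of simple epithelia and trophoblast, and IGFBP3, an IGF-binding protein, were the members that rose most at high counts, by 5.70 ± 0.26 and 3.43 ± 0.23. CDX2, a defining trophoblast factor, was near 0 in both groups, and VTCN1 fell by -1.65 ± 0.16.

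Proliferation genes fell by small amounts. Of 32 DNA replication genes, 18 fell and 1 rose (median -0.33), and of 25 mitosis genes, 14 fell and 1 rose (median -0.34). MCM6, a helicase subunit, fell from 400, 430 and 468 CPM to 214, 233 and 257 CPM (-0.93 ± 0.09, edgeR adjusted p = 1.22e-06). CDC20, an activator of the anaphase-promoting complex, fell from 222, 282 and 353 CPM to 138, 144 and 157 CPM (-1.0 ± 0.13), and CCNB1, the mitotic cyclin, fell by -0.90 ± 0.08. In the list of G1-S regulators, 8 of 19 rose and 4 fell. CDKN1A, the CDK inhibitor p21, rose from 2.66, 5.67 and 14.8 CPM to 103, 144 and 94.0 CPM (4.00 ± 0.38, edgeR adjusted p = 9.95e-07), and CDKN2B, the inhibitor p15, rose from 0.539, 1.97 and 8.04 CPM to 31.1, 43.5 and 23.5 CPM (3.42 ± 0.56). CDKN1C, the inhibitor p57, went the other way (-1.73 ± 0.47), although not past the threshold against primed J alone (adjusted p = 0.0988).

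The p53 target genes rose together. Of 23 tested, 15 rose, 0 fell and 8 gave no call, with a median of 1.45 (15, 0 and 1.47 without library 1). ZMAT3, an RNA-binding target of p53, stood at 112, 121 and 121 CPM against 7.0, 15.2 and 22.8 CPM (2.88 ± 0.28, edgeR adjusted p = 1.49e-06). EDA2R, a death-domain receptor, rose from 6.80, 12.1 and 19 CPM to 104, 120 and 101 CPM (3.08 ± 0.25). PHLDA3, an inhibitor of AKT, rose from 10.2, 11.5 and 17.2 CPM to 64.0, 76.9 and 77.2 CPM (2.50 ± 0.18). None of these groups overlapped, and the TL-CDK8/19i libraries lay close together for each gene. MDM2, the ubiquitin ligase of p53, rose by 1.45, and RRM2B, a ribonucleotide reductase subunit, rose by 2.30. In all, 7 of the 23 members, namely MDM2, FAS, SESN1, ZMAT3, RRM2B, PHLDA3 and EDA2R, were higher than in primed cells and all 6 other protocols. Of the 14752 genes tested in all 8 groups, 4.20% were. In the BCL2 family, 4 of 15 rose and 1 fell, and both pro-survival BCL2L1 (1.28 ± 0.14) and pro-apoptotic BCL2L11 (1.39 ± 0.15) and BMF (1.17 ± 0.23) rose, while MCL1, pro-survival, fell by -0.62 ± 0.11.

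In metabolism and stress, 12 of 23 genes of the ATF4 list rose and 2 fell (median 0.76). DDIT4, an inhibitor of mTORC1, rose from 7.81, 10.1 and 17.7 CPM to 78.6, 78.6 and 75.7 CPM (2.75 ± 0.23, edgeR adjusted p = 4.18e-07), and TRIB3, a pseudokinase, rose by 2.63 ± 0.21. SESN2, a leucine sensor that p53 also induces, rose from 16.6, 25.6 and 31.0 CPM to 134, 148 and 130 CPM (2.42 ± 0.17). Of 28 amino acid transporters, 8 rose and 7 fell. SLC1A4, a neutral amino acid transporter, rose from 9.04, 11.2 and 13.2 CPM to 149, 170 and 155 CPM (3.74 ± 0.13) and SLC7A8, a light chain of system L, fell from 91.0, 107 and 122 CPM to 25.4, 15.8 and 24.1 CPM (-2.32 ± 0.17). Of 11 fatty acid synthesis genes, 7 rose and 1 fell (median 0.79), among them SREBF1, the lipogenic transcription factor (1.34 ± 0.20), and SCD, the stearoyl-CoA desaturase (1.08 ± 0.07).

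Cholesterol synthesis genes were split, with 4 of 23 up and 5 down (median 0.10), and the late-step enzymes SC5D and DHCR7 fell by -0.92 ± 0.17 and -0.86 ± 0.19 to below their level in every other group. Glycolysis and hypoxia genes were split as well, with 9 of 28 up and 10 down, and SLC2A3, the glucose transporter GLUT3, rose from 417, 482 and 566 CPM to 1358, 1384 and 1480 CPM (1.46 ± 0.09, edgeR adjusted p = 1.83e-08). Oxidative phosphorylation genes had 11 of 34 down and 4 up (median -0.21). Of 18 heat shock genes, 8 fell and 4 rose, with HSPA8, the constitutive HSC70 chaperone, going from 3462, 3598 and 3914 CPM to 1852, 2111 and 2246 CPM (-0.87 ± 0.07). Of 18 metallothionein and oxidative stress genes, 6 rose and 4 fell, but 2 or 3 rose when any 1 TL-CDK8/19i library was left out, and HMOX1, heme oxygenase, rose by 2.23 ± 0.19 to above all other groups. Polycomb genes were split, 7 of 29 up and 13 down, with BCOR, a repressor subunit, down by -1.57 ± 0.13 and PCGF5 up by 3.40 ± 0.27. Of the remaining lists, 2 of 8 blood and endothelial genes rose, 5 of 12 estrogen-response genes rose and 3 fell, and 2 of 8 histone genes fell.

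Among genes whose log2 CPM averaged 3 or more over the 9 libraries and whose groups did not overlap, the largest rises were led by COL8A1, a short-chain collagen of vessel walls and cornea, at 649, 979 and 703 CPM against 0, 4.25 and 15.7 CPM (6.90 ± 0.47, edgeR adjusted p = 4.38e-08). SHISA9, an auxiliary protein of AMPA receptors, rose from 1.68, 3.38 and 6.33 CPM to 198, 252 and 230 CPM (5.86 ± 0.24). ECM1, an extracellular matrix protein, EMP1, an epithelial membrane protein, and GREM1, a secreted BMP antagonist, rose by 5.67 ± 0.23, 5.67 ± 0.30 and 5.46 ± 0.36. JPH2, a junction protein of cardiac muscle, FGFBP3, an FGF carrier, and ALPK2, an alpha-kinase, rose by 5.19 ± 0.39, 5.17 ± 0.21 and 5.12 ± 0.43, and COL2A1, the collagen of cartilage, and CDH13, an anchored cadherin, rose by 5.05 ± 0.28 and 5.04 ± 0.25.

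Among the largest falls was CTSC, a lysosomal dipeptidyl peptidase, which went from 375, 451 and 500 CPM to 25.8, 21.4 and 28.7 CPM (-4.18 ± 0.14, edgeR adjusted p = 1.20e-10). SLC6A11, a GABA transporter, fell from 19.1, 22.1 and 26.5 CPM to 1.61, 1.34 and 3.09 CPM (-3.50 ± 0.32). FZD5, a Wnt receptor, fell from 235, 304 and 404 CPM to 44.5, 23.6 and 40.6 CPM (-3.14 ± 0.24), while the Wnt targets above rose. HESX1, a homeobox repressor of the anterior epiblast, fell by -3.27 ± 0.38, HSD11B2, which inactivates glucocorticoids, by -3.20 ± 0.27, and GRB7, an adaptor of receptor tyrosine kinases, by -3.13 ± 0.36. ZNF114 and MYRIP, a motor adaptor, fell by -3.23 ± 0.19 and -3.03 ± 0.26.

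In a fit of all 8 groups, 14752 genes were tested, and 619 (4.20%) were higher in TL-CDK8/19i cells than in primed cells and every other protocol. These genes were chosen by the comparison, so their values are a description without a test. The smallest of the 7 log2 differences reached 1 in 206 of them and 2 in 69. The nearest group was primed in 179, E-NHSM in 115, NHSM-v in 111, 4i/L/b in 90, TL2i in 63, LCDM (EPS) in 32 and t2iLGöY in 29. Without library 1 the rule took 596 genes, 560 of them shared with the 619. With no test, 952 genes had all 3 TL-CDK8/19i libraries above the 24 others, of which 571 were among the 619.

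CLIC5, a chloride channel protein tied to the actin cytoskeleton, stood at 57.6, 85.8 and 61.2 CPM, and the highest mean of another group was 0.63 CPM, in E-NHSM. KRT7 stood at 129, 219 and 138 CPM against a next highest mean of 3.72 CPM, and SHISA9 had a next highest mean of 9.03 CPM, in t2iLGöY. NIPAL4, a magnesium transporter of the epidermis, stood at 69.6, 111 and 80.8 CPM with a next highest mean of 4.73 CPM in TL2i. MFAP5, a microfibril protein of elastic fibres, had at most 3 counts in every primed library and stood at 30.7, 50.8 and 32.3 CPM, at least 125-fold higher. The mean of no other group exceeded 0.55 CPM. TBX5, a cardiac and forelimb T-box factor, stood at 12.8, 15.4 and 14.8 CPM, at least 47.4-fold above primed cells, with means of at most 0.15 CPM elsewhere. MGLL, monoacylglycerol lipase, stood at 21.1, 30.1 and 20.2 CPM, with a next highest mean of 1.38 CPM. FPGT, a sugar nucleotide enzyme, stood at 6.31, 9.36 and 9.57 CPM, at least 27.8-fold above primed cells, and GSG1 at 10.3, 14.4 and 15.8 CPM. FPGT has a neighbour with which readthrough transcripts are annotated in human, and how reads were shared between them was not tested.

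Several of these genes encode muscle proteins. MYL4, the atrial myosin light chain, stood at 123, 174 and 150 CPM against 0, 0 and 1.57 CPM in primed cells and a mean of 4.00 CPM in TL2i, the next highest group. SLN, sarcolipin, a regulator of the muscle calcium pump, was not above 3 counts in any primed library and stood at 21.9, 41.2 and 20.9 CPM, at least 92.5-fold higher. A list of 39 contractile and sarcomere genes was therefore drawn up after these values were seen, so its counts describe how the list was found and support nothing. Of 34 tested against primed cells, 29 rose and 0 fell (median 1.64), and 16 of 37 tested in the 8-group fit were higher than in all other groups. ACTA1, skeletal actin, rose from 105, 136 and 205 CPM to 1258, 1816 and 1586 CPM (3.36), and ACTC1, cardiac actin, from 85.6, 100.8 and 137 CPM to 998, 1313 and 1297 CPM (3.46). MYH11, smooth muscle myosin, rose by 3.60, and DES, the muscle filament desmin, by 2.01. NPPA, the atrial natriuretic peptide, was at 0 in every primed library and at 11.9, 16.3 and 13.2 CPM in TL-CDK8/19i cells, at least 45.5-fold higher. The list joined skeletal, cardiac and smooth muscle isoforms, and ACTA2, whose rise over primed cells was given above, was not higher than in all other groups.

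**Figure D5:**
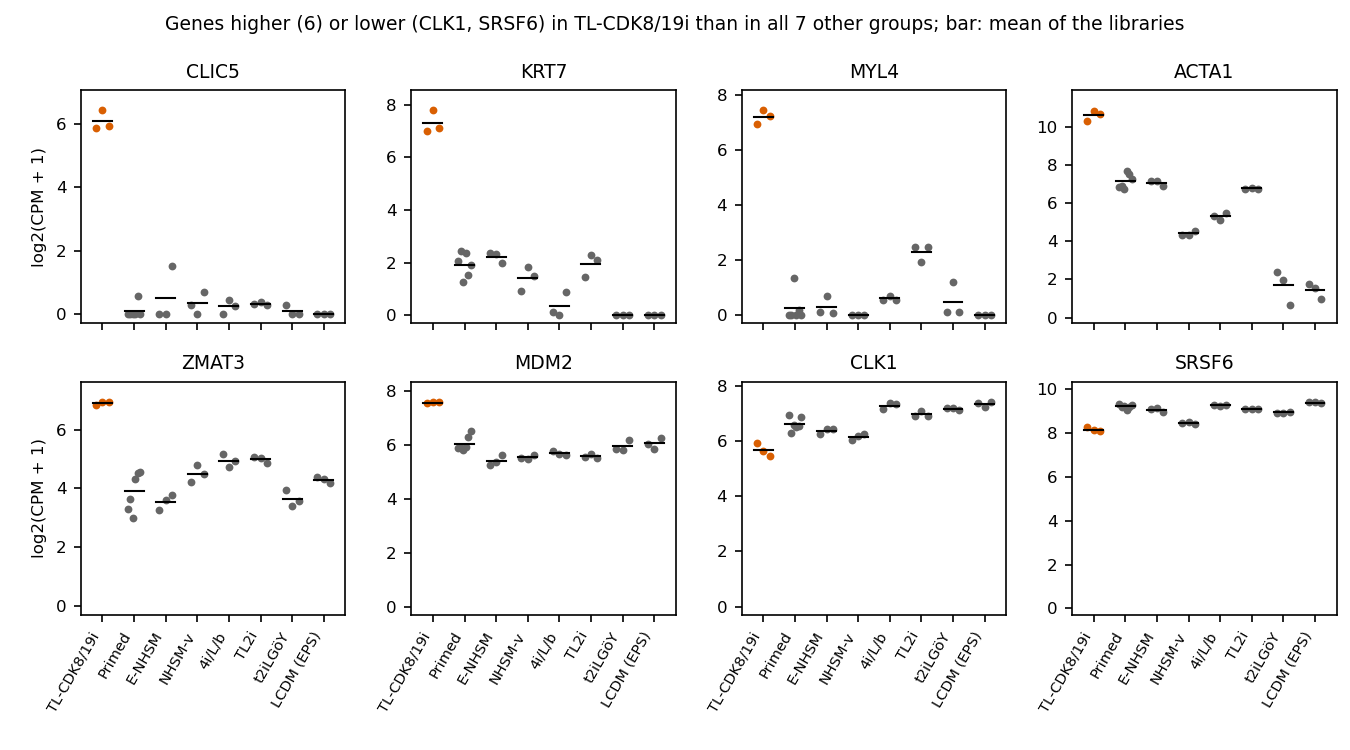
Levels of 8 genes in each of the 27 libraries, as log2(CPM + 1) on the vertical axis and by group on the horizontal axis, with a bar at the mean of the plotted values. CLIC5, KRT7, MYL4, ACTA1, ZMAT3 and MDM2 have all 3 TL-CDK8/19i points (orange) above every other library, and CLK1 and SRSF6 have them below.

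Integrins, keratins and collagens were looked up by symbol after values were seen. Of 22 integrin symbols tested against primed cells, 11 rose and 2 fell, and 6 of 27 tested in the 8-group fit were higher than in all other groups. ITGB1, the common beta chain, rose from 846, 948 and 1178 CPM to 3657, 4937 and 4627 CPM (2.11), and ITGA5, the fibronectin receptor chain, from 166, 188 and 207 CPM to 798, 1028 and 855 CPM (2.19). Of 8 keratin symbols tested, 5 rose and 0 fell. Of 36 collagen symbols, 20 rose and 4 fell, but none of 39 tested in the 8-group fit was higher than in all other groups.

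In the opposite direction, 492 of the 14752 genes (3.34%) were lower in TL-CDK8/19i cells than in primed cells and every other protocol. The differences were smaller than for the genes above all groups, with 50 genes at a smallest difference of at least 1 and 9 of at least 2. Without library 1 the rule took 527 genes, of which 447 were shared. PRR36, a proline-rich protein, stood at 24.4, 12.9 and 12.8 CPM against 60.7, 76.3 and 106 CPM in primed cells and a lowest mean of 51.4 CPM among the protocols. ZNF91, a KRAB zinc-finger repressor of retroelements, stood at 11.5, 1.78 and 1.84 CPM, so library 1 was well above the others, against 14.8, 21.4 and 37.8 CPM. MYB, a transcription factor of progenitor cells, stood at 2.41, 0.669 and 0.387 CPM against 4.47, 8.21 and 14 CPM, and ABCC8, the sulfonylurea receptor, at 4.82, 1.45 and 2.13 CPM against 6.98, 10.6 and 14.9 CPM.

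PCDHB2 and PCDHB3, members of the beta cluster of protocadherins, stood at 1.15, 0.223 and 0.580 CPM and at 0.803, 1.0 and 0.773 CPM, against means of 7.68 and 9.16 CPM in primed cells. Reads shared between these similar genes make their levels uncertain. Of 10 clustered protocadherins tested against primed cells, 3 fell and 0 rose.

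Symbols of splicing factors were also gathered after values were seen. Of 37 SRSF, HNRNP and CLK genes tested, 32 fell and 0 rose (median -0.74). Of 37 in the 8-group fit, 12 were lower than in all other groups, against 3.34% of all genes. HNRNPDL, a regulator of alternative splicing, fell from 771, 840 and 955 CPM to 342, 297 and 303 CPM (-1.49). SRSF6, an SR protein, fell from 524, 591 and 640 CPM to 309, 276 and 267 CPM (-1.11), and CLK1, a kinase of SR proteins, from 76.6, 93.1 and 121 CPM to 60.2, 49.3 and 42.8 CPM (-1.0). The groups did not overlap for these 3 genes. Zinc-finger symbols beginning with ZNF also fell more often than they rose, 138 against 29 of 382 (123 against 19 of 383 without library 1), with 44 of 394 in the 8-group fit lower than in all other groups. Ribosomal protein genes fell in 51 of 80, mitochondrial ribosomal protein genes in 37 of 76 and proteasome subunits in 21 of 46, and 0 members of these 3 families were lower than in all other groups. With 1 TL-CDK8/19i library left out, 23 to 26 mitochondrial ribosomal and 13 to 17 proteasome genes fell, the fewest without library 1, which brings both shares closer to the 23.8% of all genes.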

How the data were processed

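The authors prepared directional mRNA libraries from total RNA and deposited raw read counts per gene symbol, 1 column per library. The submitters' processing notes name bcl2fastq, cutadapt, HISAT2 and HTSeq. Genome build, annotation and versions are not given in the sources used here, so the handling of reads shared between similar or overlapping genes is unknown. The TL-CDK8/19i columns match single samples. The primed columns give only the group, and their letters were not assigned to the sets of the labels.

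From the counts, TMM factors, CPM and the quasi-likelihood test were computed with edgeR 4.0.16 in R 4.3.3, without a block, on genes kept by filterByExpr, with Benjamini-Hochberg adjustment. TL-CDK8/19i against primed cells was fitted on its 9 libraries, and the 7 contrasts against every other group on all 27. A group with at most 3 counts in each library was taken as at the floor, and its fold is a bound.

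Named genes were the 12 largest rises and 12 largest falls (mean log2 CPM of at least 3, no overlap between groups), the 12 genes highest above and 6 lowest below all groups, up to 4 members of each list by size, and a fixed group check. Of these, 3 genes are not reported here. ESR1, PEG3, ZNF560 and HKR1 were added after their values were seen. The members and the 37 lists were chosen with earlier results of these data known.

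Alternatives were DESeq2 1.42.0, upper-quartile normalization, other count filters, a minimum log2 change of 1, other sets of libraries, and a replicate block. Tests were run first on simulated data.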

Additional observations from a re-analysis of the deposited data

Results flagged for a closer look

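Among the primed libraries, 15 of 164 testable named genes had 1 library far from the other 5, by Dixon's criterion at the 95% level, which chance exceeds in about 1 of 20. Library J3 was the highest for COL9A2 (35.6 CPM), CXCR4 (11.7 CPM), ECM1 (10.6 CPM), GATA6 (7.29 CPM), KLF4 (2.43 CPM), MYL4 (1.57 CPM) and NDRG1 (12.6 CPM). Library K1 was the highest for ALPK2 (26.1 CPM), GREM1 (23.1 CPM) and SLC38A4 (29.9 CPM), and the lowest for SHANK2 (6.08 CPM). Library J2 was the highest for CLDN4 (2.37 CPM), SOX17 (2.48 CPM) and SP5 (1.40 CPM), and K2 for NOG (0.968 CPM). Groups of 3 libraries, TL-CDK8/19i among them, were not tested in this way.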

How the results depend on the processing

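The counts of genes that changed, 6162 in all, kept within 1.5 times under DESeq2 (6350), upper-quartile normalization (6140), no filter (6359), at least 10 counts in every library (5650), all 8 groups in 1 fit (7640) and either primed letter alone. Whether rises or falls were more frequent did depend on the setting. Falls led in the main fit (2985 rises, 3177 falls), under upper-quartile normalization and with at least 10 counts in every library. Rises led under DESeq2 (3316 against 3034), no filter (3332 against 3027), all 8 groups in 1 fit (4269 against 3371) and either primed letter alone. A minimum log2 change of 1 left 2584 genes, 1690 higher and 894 lower, and 206 higher and 50 lower than all other groups. Taking every TL-CDK8/19i library above every other library, with no test, gave 952 genes in place of 619. With each library left out in turn, 4760 to 6663 genes changed, 2323 to 3264 upward and 2431 to 3399 downward, with 460 to 664 higher and 331 to 542 lower than all other groups. The lowest numbers came without TL-CDK8/19i library 2 or 3 and the highest without primed J3, and the cause was not tested.

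No pairing of TL-CDK8/19i with primed libraries by replicate number was seen, as the correlation of same-numbered deviations lay between -0.09 and 0.09. Primed deviations were taken from the mean of J and K together. The difference between the letters is thus part of them, and the check cannot exclude pairing. With the replicate number as a block, 5839 genes changed, 2900 upward and 2939 downward, and 602 were higher and 480 lower than all groups.

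Genes without a call changed sign in 6 cases. SOCS3 gave 0.077 against primed J alone, STAT3 gave -0.021 against primed K alone and HKR1 -0.46 against J alone. CDK8 gave -0.014 against J alone, and from -0.0156 (without K2) to 0.068 (without J1) with each library left out, falling below 0 also without J3 (-0.01). The cause was not tested.

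Depth limits the lineage lists. With at least 10 counts in every library, 4 neural, 2 mesoderm, 2 endoderm and 3 BMP genes rose, since fewer of their genes were then tested.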

Other observations

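ZNF560 and HKR1, zinc-finger genes outside the lists, also separated the primed libraries by letter. ZNF560 stood at 0 CPM in J1 to J3, at 29.8, 36.8 and 31.8 CPM in K1 to K3, and at 0.344, 0.111 and 0.0967 CPM in TL-CDK8/19i cells. HKR1 stood at 27.9, 31.8 and 18.4 CPM in J1 to J3, at 0, 0.0691 and 0 CPM in K1 to K3, and at 20.5, 18.4 and 19.5 CPM in TL-CDK8/19i cells. For both genes all 3 TL-CDK8/19i libraries lay with primed J. Both were chosen after their values were seen.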
